A study of Rattus norvegicus with 48 samples.

Results

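Tgfb1, Tgfb3, Tgfbr1, Tgfbr2, Smad2 and Smad3, the ligands, receptors and receptor-activated Smads of transforming growth factor beta (TGF-beta) signalling, were followed across every group of an RNA sequencing study of rat liver slices. They were taken as a fixed set of 6 identifiers out of 32883 in the count table, with no threshold on their values: ENSRNOG00000020652 (Tgfb1), ENSRNOG00000009867 (Tgfb3), ENSRNOG00000007036 (Tgfbr1), ENSRNOG00000013265 (Tgfbr2), ENSRNOG00000018140 (Smad2) and ENSRNOG00000008620 (Smad3). The symbols belong to that set, because the deposited tables carry Ensembl identifiers only. All 6 passed the filter on low counts, which left 14775 genes for testing.

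The study profiled slices cut from living rat liver and kept in culture, as a fibrosis model for testing compounds. Sham_veh slices (n = 9) are from sham operation with vehicle and BDL_veh slices (n = 10) from bile duct ligation, which stops bile outflow and scars the liver, with vehicle. Slices of ligated liver were also treated with compounds: 10 received Sora (group BDL_Sora), 10 received Nint (group BDL_Nint) and 9 received SB525334 (group BDL_SB525334). The first 2 names are short forms in the labels, read here as the multikinase inhibitors sorafenib and nintedanib, while SB525334 blocks the kinase of the type I TGF-beta receptor, the product of Tgfbr1. No sham slices received a compound, so each compound effect is one in ligated tissue. The labels state no strain, age, dose, exposure time or animal of origin. Slices may share a rat, and p-values then describe the spread between libraries, which may be technical. In the deposited sample sheet 9 of 9 SB525334 libraries carry another compound code, and the group is named here by its label.

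TGF-beta ligands are secreted in a latent form and, once released, bind the type II receptor encoded by Tgfbr2, which then phosphorylates the type I receptor encoded by Tgfbr1. The active type I receptor phosphorylates Smad2 and Smad3, which join Smad4, enter the nucleus and regulate transcription. In injured liver this pathway is known for driving hepatic stellate cells to become matrix-producing myofibroblasts and for restraining the growth of hepatocytes. Both signalling and its inhibition act on these proteins mainly through phosphorylation, which RNA levels do not record.

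The libraries held 12249470 to 29596987 counts in total (median 14426886). Values are CPM, read counts scaled to a common library size, with TMM factors (trimmed mean of M-values) and are summarised as mean ± SD. They are not divided by transcript length, so levels are compared between groups and not between genes. A difference is called where edgeR's quasi-likelihood test gave a p under 0.05 after Benjamini-Hochberg adjustment over all 14775 genes. Bulk tissue was sequenced, so more cells of a type and more RNA per cell cannot be told apart. Markers of liver cell types were not checked, since no table used here pairs the identifiers with symbols. Libraries 1, 6 and 8 of BDL_SB525334 stood apart in the share of reads mapped to more than 1 place (9.85 to 11.27%, against 13.42 to 20.85% in the other 6). Libraries 3 and 6 of BDL_veh were also left out together. Both sets were taken from earlier results of these data. The vehicle pair has the 2 highest values of Tgfbr2 and the 2 lowest of Smad3 in its group, so no call gained without it is read as a result. Libraries 1, 6 and 8 of BDL_SB525334 lay below the other 6 in Tgfbr1, Smad2 and Smad3. No rise that grew, and no call gained, without them is read as a result.

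The stretches upstream of the start site are printed for the ligand that changed in all compounds, Tgfb1, and for the Smad with the widest response to SB525334, Smad3. They cover the 250 bases before the annotated start in RefSeq's GRCr8 assembly, at chr1:90324062-90324311 (plus strand) for Tgfb1 and chr8:73132325-73132574 (minus strand) for Smad3. They are written 5′ to 3′ on the gene's strand, with capitals marking a match to GGGCGG, the core of the GC box bound by Sp1-family factors, on either strand.
Tgfb1: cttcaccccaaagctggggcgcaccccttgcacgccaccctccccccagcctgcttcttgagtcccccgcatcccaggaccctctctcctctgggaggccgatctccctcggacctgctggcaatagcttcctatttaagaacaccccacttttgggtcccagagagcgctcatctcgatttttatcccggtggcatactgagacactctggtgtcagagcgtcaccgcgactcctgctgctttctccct
Smad3: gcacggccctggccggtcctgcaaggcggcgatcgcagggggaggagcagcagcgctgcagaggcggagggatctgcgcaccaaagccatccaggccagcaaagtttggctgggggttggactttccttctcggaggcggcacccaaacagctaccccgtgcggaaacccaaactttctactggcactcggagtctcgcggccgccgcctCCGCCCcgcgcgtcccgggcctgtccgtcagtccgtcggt
The same 250-base windows were read for all 6 genes, with 2 windows for Smad2. GGGCGG occurred in 30.5% of 33469 windows of the RefSeq table and was found 3 times for Tgfbr1, once for Tgfbr2, once and 5 times in the windows of Smad2, once for Smad3 and not for Tgfb1 or Tgfb3. The G and C content was 48.8% for Tgfb3 and 60% for Tgfb1, and 58% to 82.8% in the windows of the receptors and Smads. The Smad-binding letters CAGAC, found in 42.9% of all windows, the AP-1 letters TGANTCA, in 6.34%, and TATAAA, in 12.9%, were searched on both strands and were in none of these windows. A match or its lack describes these letters only.

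Ligation raised both ligands and the type I receptor strongly and both Smads slightly, and no change was called for the type II receptor. The compounds then divided the set. Tgfb1 fell with each of the 3 compounds, Tgfb3 fell with SB525334, and Tgfbr2 and Smad3 rose with SB525334. The plot of all libraries shows the 6 genes by group.

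**Figure D1:**
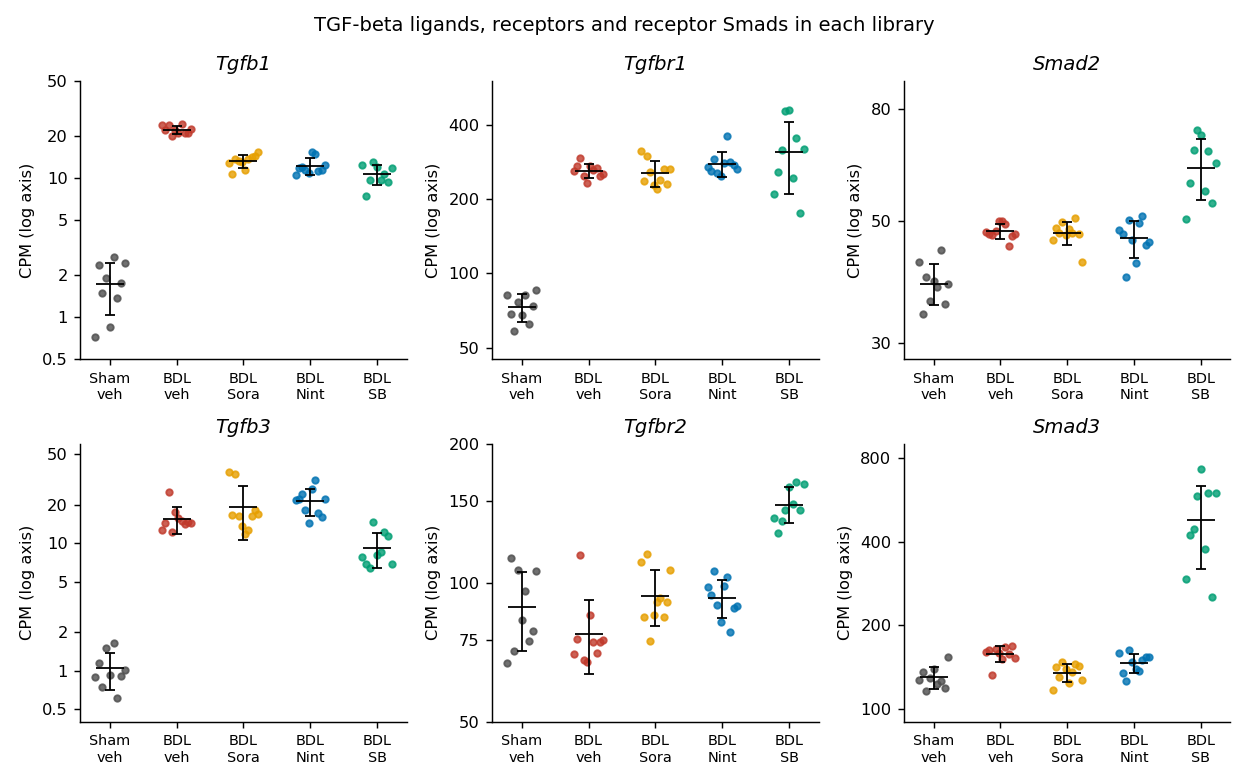
TMM-scaled CPM (log axis) of each gene in 48 libraries, by group; points are libraries and bars the mean ± SD. Tgfb1 lies at 0.718 to 2.71 CPM in sham and 19.97 to 24.6 CPM in ligated vehicle libraries, and Smad3 at 254 to 728 CPM with SB525334, above every other library.

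The ligands come first. Tgfb1, the main profibrotic isoform in liver, had 0.718 to 2.71 CPM in sham libraries (median 1.76), from 8 to 41 reads, so the sham level is imprecise. In ligated vehicle libraries it had 19.97 to 24.6 CPM (median 22.2). Every ligated library lay far above every sham library. The means were 1.74 ± 0.701 CPM (SD, n = 9) and 22.3 ± 1.51 CPM (n = 10), a 12.7-fold rise (log2 3.66, SE 0.137, edgeR adjusted p = 1.75e-28), and 7.96% of all genes rose by more.

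With Sora, Tgfb1 ranged from 10.7 to 15.4 CPM (median 13.5). With Nint it ranged from 10.6 to 15.3 CPM (median 11.6). With SB525334 it ranged from 7.41 to 13.1 CPM (median 10.7). No library of these 3 groups reached the lowest ligated vehicle library, and none came down to the sham range. Tgfb1 fell by 0.75 on the log2 scale with Sora (SE 0.110, edgeR adjusted p = 6.1e-07), by 0.87 with Nint (SE 0.111, edgeR adjusted p = 3.12e-08) and by 1.06 with SB525334 (SE 0.116, edgeR adjusted p = 3.24e-11). Each of these calls held in 12 of 12 alternatives and without each library in turn. Among all genes, 4.45%, 2.99% and 11.2% fell further than Tgfb1 in these 3 comparisons, which share the vehicle libraries. Set directly against sham, Tgfb1 was still 7.54-fold higher with Sora, 6.94-fold with Nint and 6.07-fold with SB525334 (edgeR adjusted p = 1.32e-24, 6.78e-24 and 2.78e-22).

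The 5 groups therefore ordered as sham, SB525334, Nint, Sora and vehicle from low to high. SB525334 and Nint did not differ by the test (log2 -0.19, 95% interval -0.43 to 0.04, edgeR adjusted p = 0.134), nor did Nint and Sora (log2 -0.12, interval -0.34 to 0.10, edgeR adjusted p = 0.648). SB525334 lay below Sora by a called difference (log2 -0.31, edgeR adjusted p = 0.0147), although their libraries overlapped. The first difference was called in 4 of 12 alternatives, among them DESeq2 (adjusted p = 0.016), so its call depends on the method.

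Tgfb3, a second ligand of the same receptors, was also scarce in sham slices, with 0.616 to 1.66 CPM (median 0.927) from 9 to 25 reads. Ligated vehicle libraries had 12.2 to 25.0 CPM (median 14.5). Again no library of one group reached the other. The means were 1.05 ± 0.339 CPM (n = 9) and 15.5 ± 3.65 CPM (n = 10), a 14.6-fold rise (log2 3.87, SE 0.234, edgeR adjusted p = 3.31e-20), and 7.13% of genes rose by more. The highest vehicle library, replicate 3 at 25.0 CPM, stood clear of the next at 17.6 CPM, and without replicates 3 and 6 the rise was 3.76 on the log2 scale.

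No fall of Tgfb3 was called with Sora or Nint. With Sora it spread from 11.9 to 36.2 CPM (median 16.5), the 2 highest libraries being at 34.8 and 36.2 CPM. With Nint it ranged from 14.3 to 31.2 CPM (median 21.9). Both ranges overlapped that of vehicle. The difference from vehicle was 0.31 with Sora on the log2 scale (95% interval -0.04 to 0.67, edgeR adjusted p = 0.188), which was not called. With Nint it was 0.46 (interval 0.11 to 0.81, edgeR adjusted p = 0.0497), a call at the threshold that held in only 3 of 12 alternatives. That call was also lost in 14 of the 20 fits that left out 1 vehicle or Nint library, with log2 values of 0.38 to 0.56.

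With SB525334, Tgfb3 ranged from 6.44 to 14.6 CPM (median 8.06) and overlapped the lower vehicle libraries. The mean of 9.21 ± 2.86 CPM (n = 9) was 1.69-fold lower than with vehicle (log2 -0.76, SE 0.188, edgeR adjusted p = 0.000392), a call that held in 12 of 12 alternatives. Tgfb3 was also lower with SB525334 than with Sora (log2 -1.07, edgeR adjusted p = 2.26e-06) and than with Nint (log2 -1.21, edgeR adjusted p = 1.84e-07). It remained 8.67-fold above sham. Its order from low to high was sham, SB525334, vehicle, Sora and Nint, and the last 3 did not differ between neighbours apart from the threshold call of Nint against vehicle. Sora and Nint differed by 0.15 (interval -0.20 to 0.50, edgeR adjusted p = 0.736).

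**Figure D2:**
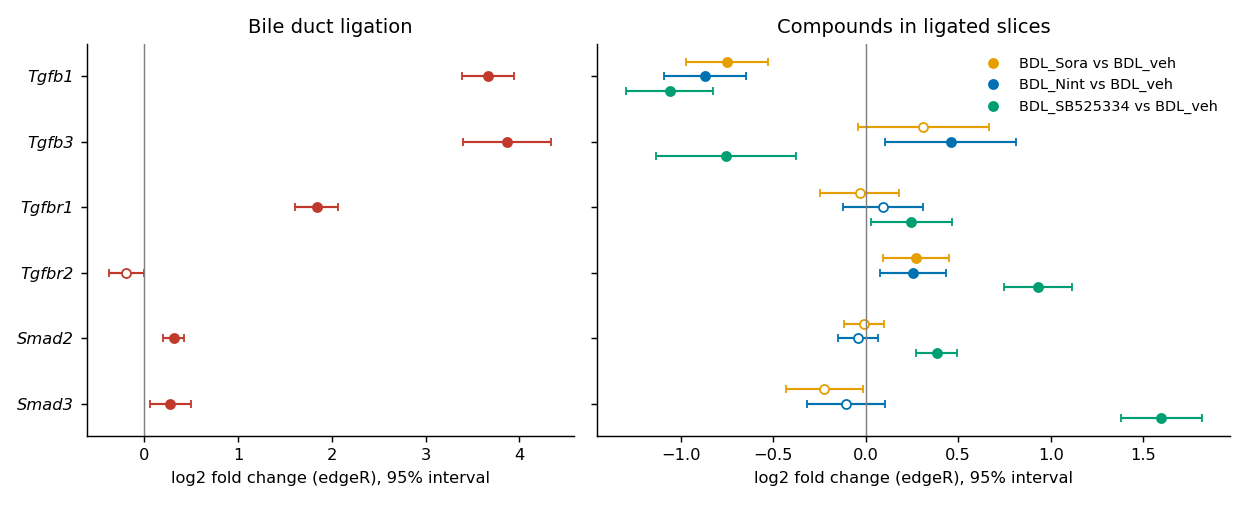
Log2 fold changes of the 6 genes with 95% intervals from edgeR, for ligated against sham vehicle slices (left) and each compound against ligated vehicle (right); filled points passed adjusted p under 0.05. Tgfb1 lies at 3.66 on the left and at -0.75, -0.87 and -1.06 on the right. With total counts as the scaling Tgfbr2 on the left and Tgfbr1 and Smad2 under SB525334 change sign. Relative to the median of all genes they do not, but such values hardly depend on the scaling and do not decide the sign.

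The receptors behaved differently from each other. Tgfbr1, the type I receptor whose kinase SB525334 blocks, ranged from 58.3 to 85.8 CPM in sham libraries (median 73.7) and from 233 to 294 CPM in ligated vehicle libraries (median 261). The groups did not overlap. The means were 72.9 ± 9.34 CPM (n = 9) and 261 ± 16.9 CPM (n = 10), a 3.58-fold rise (log2 1.84, SE 0.115, edgeR adjusted p = 9.76e-20) that 18.1% of genes exceeded. The deposited estimates for Tgfbr1 were not whole in 46 of 48 libraries, unlike those of the other 5 genes. Its level is uncertain to the extent that the counting divided reads between genes.

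Sora left Tgfbr1 at 220.02 to 312 CPM (median 248) and Nint at 248.8 to 361 CPM (median 271). Both spans covered that of vehicle in large part. The differences from vehicle were -0.03 with Sora (95% interval -0.25 to 0.18, edgeR adjusted p = 0.857) and 0.09 with Nint (interval -0.12 to 0.31, edgeR adjusted p = 0.594). SB525334 gave the widest spread, from 175 to 458 CPM (median 315, mean 309 ± 99.95, n = 9), with libraries below as well as above all vehicle libraries. Its difference of 0.25 from vehicle was called (SE 0.110, edgeR adjusted p = 0.0406) but in only 3 of 12 alternatives, and it turned to -0.18 with total counts (edgeR adjusted p = 0.0947). Leaving out 1 library ended that call in 10 of 19 fits. Without libraries 1, 6 and 8 of SB525334 the difference was 0.47 (edgeR adjusted p = 1.52e-05). Those libraries are the lowest of the group in Tgfbr1, so the larger difference follows from leaving them out.

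Tgfbr2, the type II receptor that binds ligand first, ranged from 67.0 to 113 CPM in sham (median 83.1) and from 67.5 to 115 CPM in ligated vehicle libraries (median 74.4). The 2 ranges covered each other. The means were 88.5 ± 17.2 CPM (n = 9) and 77.5 ± 14.0 CPM (n = 10), and the difference of -0.19 (95% interval -0.38 to -0.01) was not called (edgeR adjusted p = 0.0519). It was 0.15 with total counts (edgeR adjusted p = 0.12). Replicate 3, at 115 CPM, was far above the next vehicle library at 85.1 CPM, and without it alone the difference was -0.27 (edgeR adjusted p = 0.00327). Leaving out vehicle replicate 6, or sham replicate 1, 3, 5, 7 or 8, gave calls too, at -0.20 to -0.24.

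Tgfbr2 was called higher with every compound. Sora libraries had 74.8 to 115 CPM (median 90.9) and Nint libraries 78.2 to 106 CPM (median 91.7), overlapping vehicle. The rises of 0.27 with Sora (SE 0.0893, edgeR adjusted p = 0.0175) and 0.26 with Nint (SE 0.0894, edgeR adjusted p = 0.0286) passed the test. They were lost with total counts, at 0.21 (edgeR adjusted p = 0.0685) and 0.23 (edgeR adjusted p = 0.0566), and the Nint call also with RLE factors and without any 1 of 6 libraries: vehicle replicates 1, 4, 5 and 8 and Nint replicates 3 and 7.

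SB525334 libraries had 128 to 165 CPM of Tgfbr2 (median 144), above every library of the other 4 groups. The mean of 148 ± 13.1 CPM (n = 9) was 1.90-fold that of vehicle (log2 0.93, SE 0.0919, edgeR adjusted p = 1.53e-12), a rise that 11.8% of genes exceeded. It was called in 12 of 12 alternatives and was smallest, at 0.52, with total counts (edgeR adjusted p = 1.96e-06). Against sham the rise was 0.74 (edgeR adjusted p = 1.18e-09). The order from low to high was vehicle, sham, Nint, Sora and SB525334, and of the 4 steps between neighbours only the last, 0.66 from Sora to SB525334, passed (edgeR adjusted p = 1.53e-08).

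The receptor-activated Smads carry the signal from the receptors to the nucleus. Smad2 was the steadiest of the 6 genes, with a biological coefficient of variation of 8.11% in the fit, lower than in all but 9.69% of genes, where that of Tgfb3 was 27.8%. It ranged from 33.8 to 44.2 CPM in sham (median 38.4) and from 45.1 to 50.1 CPM in ligated vehicle libraries (median 47.5). The groups were close but did not overlap. The 1.246-fold rise (log2 0.32, SE 0.0555, edgeR adjusted p = 1.25e-06) was exceeded by 37.5% of genes and was 0.67 with total counts.

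Sora (42.1 to 50.7 CPM, median 47.5) and Nint (39.4 to 51.0 CPM, median 46.7) left Smad2 within reach of vehicle. The differences were -0.01 (95% interval -0.12 to 0.10, edgeR adjusted p = 0.907) and -0.04 (interval -0.15 to 0.06, edgeR adjusted p = 0.62). With SB525334 it ranged from 50.4 to 73.1 CPM (median 63.9), just above the highest vehicle library at 50.1 CPM. That rise of 0.38 (SE 0.055, edgeR adjusted p = 2.83e-08) held in 11 of 12 alternatives but depended on the scaling, since with total counts it became -0.04 (edgeR adjusted p = 0.524). Total counts moved the median of all genes from 0.04 to -0.38 in this comparison. Relative to that median Smad2 stood at 0.35 with TMM factors and 0.34 with total counts. A change of scaling moves all genes by nearly the same amount, so these values must lie close and do not decide between the scalings.

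Smad3, the Smad that binds DNA directly and mediates much of the matrix response, changed little with ligation. Sham libraries had 116 to 154 CPM (median 127) and ligated vehicle libraries 132 to 169 CPM (median 160), with overlap. The rise of 0.28 (SE 0.107, edgeR adjusted p = 0.016) passed in 12 of 12 alternatives, was 0.63 with total counts and was exceeded by 38.7% of genes. Relative to the median of all genes, which total counts moved from -0.05 to 0.30, it was 0.32 with both scalings. Scaling moves that median and the gene nearly alike, so this does not decide the size of the rise.

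Sora libraries had 117 to 148 CPM of Smad3 (median 137) and Nint libraries 126 to 163 CPM (median 149). Both lay between sham and vehicle and overlapped each. The differences from vehicle, -0.22 with Sora (95% interval -0.43 to -0.01, edgeR adjusted p = 0.103) and -0.11 with Nint (interval -0.32 to 0.10, edgeR adjusted p = 0.509), were not called. The Sora difference passed in 4 of 12 alternatives, among them the fit of the 2 groups alone (-0.24, edgeR adjusted p = 0.000155) and limma-voom with sample weights (-0.22, adjusted p = 0.00162).

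Of the 6 genes, Smad3 had the largest rise with SB525334. Its libraries had 254 to 728 CPM (median 443), so that even the lowest was above every library of the other 4 groups. The mean of 478 ± 159 CPM (n = 9) was 3.03-fold that of vehicle at 158 ± 10.5 CPM (n = 10; log2 1.60, SE 0.108, edgeR adjusted p = 7.06e-18), and 3.72% of genes rose by more. The rise was called in 12 of 12 alternatives, with log2 values of 1.17 with total counts (edgeR adjusted p = 6.85e-14) and 1.84 without libraries 1, 6 and 8. Those libraries are the lowest of the group in Smad3, so the larger value follows from leaving them out. Smad3 was also higher with SB525334 than with Sora (log2 1.82, edgeR adjusted p = 1.54e-19), than with Nint (log2 1.71, edgeR adjusted p = 1.06e-18) and than in sham (log2 1.88, edgeR adjusted p = 3.21e-20). Its order from low to high was sham, Sora, Nint, vehicle and SB525334, and only the last step passed between neighbours.

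Counted over the set, 5 of 6 genes were called in ligated against sham vehicle slices, all of them higher, where 82.2% of all tested genes were called and 40.0% were higher. Groups did not overlap for 4 of 6 (Tgfb1, Tgfb3, Tgfbr1 and Smad2), all higher, against 27.5% of genes. Most genes moved in this comparison, and the count of calls is near that background. The median log2 change was 1.08 over the 6 genes and -0.05 over all genes. Library composition moved with the same comparison: the intronic share of alignments was 27.4 ± 2.13% in sham (n = 9) and 35.6 ± 0.895% in ligated vehicle libraries (n = 10), and the mitochondrial share 2.25 ± 0.142% and 1.42 ± 0.0644%. Their part in these results was not tested.

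With Sora, 1 gene was higher (Tgfbr2) and 1 lower (Tgfb1) than with vehicle, where 29.3% of all genes were called, 16.3% higher and 13.0% lower. With Nint, 2 were higher (Tgfb3, Tgfbr2) and 1 lower (Tgfb1), where 24.3% were called, 13.3% higher and 10.9% lower. Tgfb1 was the 1 gene without overlap in either comparison, against 4.64% and 4.35% of genes that were lower without overlap. With SB525334 all 6 were called (4 to 6 in the alternatives), 4 higher and 2 lower, where 73.0% of genes were called, 38.2% higher and 34.8% lower. Tgfbr2, Smad2 and Smad3 were higher without overlap, against 18.5% of genes, and Tgfb1 lower, against 16.0%. For Smad2 this depended on the scaling. With total counts the groups overlapped, SB525334 replicate 1 at 44.0 CPM lying below the lowest vehicle library, replicate 8 at 50.9 CPM. The median log2 change was -0.02 with Sora, 0.02 with Nint and 0.32 with SB525334, beside 0.02, 0.02 and 0.04 over all genes. With SB525334 (n = 9) the intronic share was 29.97 ± 2.07% and the mitochondrial share 2.86 ± 0.677%. The share mapped to more than 1 place was 14.4 ± 3.44% with SB525334 (9.85 to 20.85%) and 8.54 ± 0.235% with vehicle (8.1 to 8.89%, n = 10), without overlap. With Sora (n = 10) the intronic share was 32.9 ± 1.14% and the mitochondrial share 1.72 ± 0.105%, and with Nint (n = 10) they were 35.2 ± 0.817% and 1.51 ± 0.0959%. The part of these shares in the calls was not tested.

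Between compounds, no gene of the set was called for Nint against Sora with edgeR (smallest adjusted p = 0.619, smallest unadjusted p = 0.246), where 2.32% of all genes were called. Limma-voom with sample weights called 2 of them, Tgfb3 at 0.39 (adjusted p = 0.00926) and Tgfbr1 at 0.17 (adjusted p = 0.0498), both higher with Nint, in a fit that called 3729 of all genes in place of 343. All 6 were called for SB525334 against Sora, 4 higher and 2 lower, where 72.4% of genes were called, 36.1% higher and 36.3% lower. For SB525334 against Nint, 3 were higher (Tgfbr2, Smad2 and Smad3) and 1 lower (Tgfb3), where 72.7% were called, 36.4% higher and 36.3% lower. Tgfbr2 and Smad3 were higher without overlap in both comparisons, against 17.2% and 17.8% of genes.

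Smad2 was higher with SB525334 by 0.40 against Sora (edgeR adjusted p = 1.56e-08) and by 0.43 against Nint (edgeR adjusted p = 2.35e-09), but by 0.03 in both with total counts (edgeR adjusted p = 0.598 and 0.559). Tgfbr1 was higher by 0.28 against Sora (edgeR adjusted p = 0.0208) and 0.15 against Nint (edgeR adjusted p = 0.204). With total counts it stood at -0.09 (edgeR adjusted p = 0.412) and at -0.25, a call in the opposite direction (edgeR adjusted p = 0.0248). Relative to the median of all genes Tgfbr1 stood at 0.30 against Sora with TMM factors and 0.28 with total counts. Against Nint these values were 0.16 and 0.14. Values relative to the median hardly depend on the scaling and do not decide the sign. Its call against Sora was lost without SB525334 replicate 4 (0.19, edgeR adjusted p = 0.0959) or 5 (0.19, edgeR adjusted p = 0.1). Against Nint a call appeared without SB525334 replicate 8 (0.23, edgeR adjusted p = 0.036).

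Against sham, 4 genes were called with Sora and 4 with Nint, all higher: the ligands, Tgfbr1 and Smad2. With total counts, which moved the median of all genes from -0.02 to 0.27 with Sora and to 0.30 with Nint, all 6 were called in both. In these comparisons 80.4% and 80.9% of all genes were called, and 40.1% and 40.0% were higher. The ligands and Tgfbr1 had no overlap with sham in either, against 26.3% and 26.8% of genes. Tgfbr2 differed from sham by 0.08 with Sora and 0.07 with Nint (edgeR adjusted p = 0.424 and 0.515), and by 0.36 and 0.38 with total counts (edgeR adjusted p = 0.000383 and 0.000224). Smad3 stood 0.06 above sham with Sora (95% interval -0.16 to 0.27, edgeR adjusted p = 0.639) and 0.17 with Nint (interval -0.05 to 0.39, edgeR adjusted p = 0.139). The Sora value passed in 1 of 12 alternatives, total counts (0.35, edgeR adjusted p = 0.00271), and the Nint value in 7 of 12, among them total counts (0.49, edgeR adjusted p = 4.46e-05). With SB525334 all 6 were higher than sham without overlap, where 81.2% of genes were called, 42.9% were higher and 23.6% were higher without overlap. The differences from the same sham libraries were 0.74 for Tgfbr2, 0.70 for Smad2 and 1.88 for Smad3 with SB525334, beside -0.19, 0.32 and 0.28 with vehicle. For Tgfb1 and Tgfb3 they were 2.60 and 3.12, beside 3.66 and 3.87.

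Ratios of 2 genes within a library do not depend on how libraries are scaled, and they were added after the values above were seen. They are log2 ratios of counts with a pseudocount of 0.5, tested by permutation over libraries with adjustment over 30 tests. Since counts are not per length, only their differences between groups are read. The plot of ratios shows the 3 pairs.

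**Figure D3:**
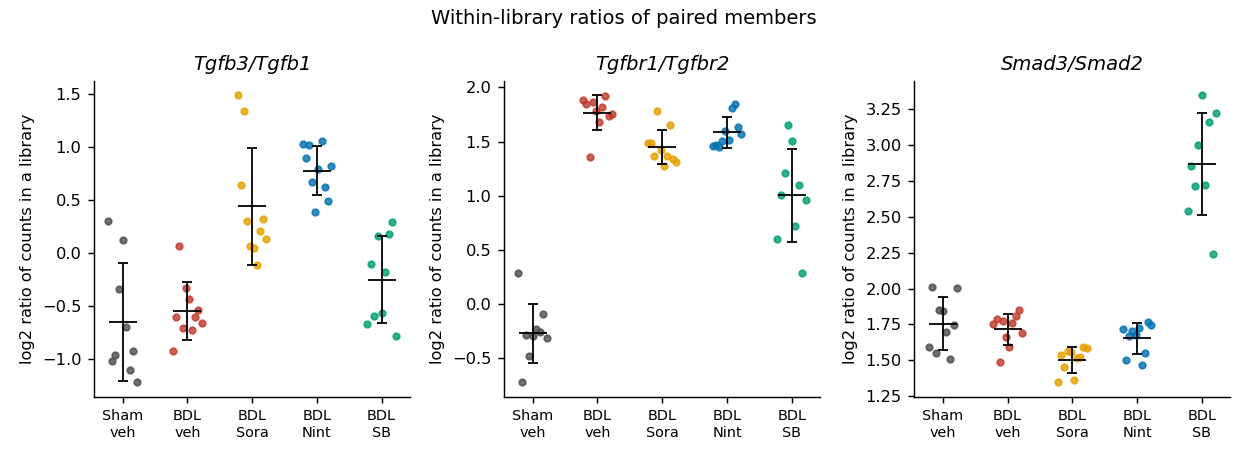
Log2 ratio of counts within each library for Tgfb3 over Tgfb1, Tgfbr1 over Tgfbr2 and Smad3 over Smad2; points are libraries and bars the mean ± SD. Tgfb3 over Tgfb1 is highest with Nint (mean 0.78), Tgfbr1 over Tgfbr2 lowest in sham (-0.27), and Smad3 over Smad2 highest with SB525334 (2.87).

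No change of the ligand balance passed with ligation. Tgfb3 over Tgfb1 was -0.65 ± 0.554 in sham (n = 9) and -0.55 ± 0.269 in ligated vehicle libraries (n = 10), a difference of 0.10 (SE 0.203, two-sided exact permutation test, adjusted p = 0.608). Sora shifted it to 0.44 ± 0.552 (n = 10), a difference of 0.99 from vehicle (permutation test, adjusted p = 0.000225), with overlap. Nint shifted it to 0.78 ± 0.232 (n = 10), a difference of 1.33 with no overlap (permutation test, adjusted p = 6.67e-05). SB525334, under which both ligands fell, left it at -0.25 ± 0.413 (n = 9), a difference of 0.30 from vehicle (exact permutation test, adjusted p = 0.099).

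The receptor balance moved the most with ligation. Tgfbr1 over Tgfbr2 rose from -0.27 ± 0.272 (n = 9) to 1.76 ± 0.162 (n = 10), a 4.09-fold change in the ratio with no overlap (exact permutation test, adjusted p = 4.06e-05). All 3 compounds lowered it: to 1.45 ± 0.159 with Sora (permutation test, adjusted p = 0.00168), 1.58 ± 0.142 with Nint (permutation test, adjusted p = 0.0258) and 1.003 ± 0.432 with SB525334 (exact permutation test, adjusted p = 0.000225). Each still overlapped vehicle and lay above sham, SB525334 by a margin of 0.2841 against 0.2838. SB525334 libraries spread up to 1.66, and their difference of -0.45 from Sora (exact permutation test, adjusted p = 0.00829) was -0.21 without libraries 1, 6 and 8 (exact permutation test, adjusted p = 0.0994).

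The Smad balance differed by less than the spread between libraries in sham (1.76 ± 0.185, n = 9) and ligated vehicle (1.72 ± 0.109, n = 10; difference -0.04, SE 0.0706, exact permutation test, adjusted p = 0.584). SB525334 raised Smad3 over Smad2 to 2.87 ± 0.354 (n = 9), a 2.22-fold change in the ratio with no overlap with vehicle (exact permutation test, adjusted p = 4.06e-05). Sora lowered it to 1.504 ± 0.0885 (n = 10), a difference of -0.21 (permutation test, adjusted p = 0.000707). Nint, at 1.65 ± 0.106 (n = 10), differed from Sora by 0.15 (permutation test, adjusted p = 0.00561) and from vehicle by -0.06 (permutation test, adjusted p = 0.227). The Smad3 share of the pair was therefore lower with Sora, although Smad3 alone was not called in the fit of all 48 libraries. The 2 results differ in more than scaling. That fit shares its estimate of the spread over all 5 groups, while the permutation test used only the 2 groups compared. With the 2 groups alone Smad3 was called (log2 -0.24, edgeR adjusted p = 0.000155).

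Variation between libraries of a group was shared by some of the 6 genes. Correlations of log2 CPM were computed for 15 pairs in each of 5 groups, 75 in all, with permutation p-values adjusted over the 75. In total 6 passed for Pearson's r, beside 18 at an unadjusted p under 0.05. Both genes of a pair are divided by the same scaling factor within a library.

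Of the 6 relations that passed, 3 were in the SB525334 group, where all 15 pairs were positive. Tgfbr1 rose with Smad2 from library to library (r = 0.95, Spearman's rho = 0.917, n = 9, exact permutation, adjusted p = 0.0092 and 0.0492), and r was 0.962 without the 2 libraries farthest from the median of Tgfbr1. Tgfbr1 and Smad3 had r = 0.947 and rho = 0.95 (n = 9, exact permutation, adjusted p = 0.0092 and 0.0265), and r = 0.874 without the 2 farthest. Smad2 and Smad3 had r = 0.895 and rho = 0.8 (n = 9, exact permutation, adjusted p = 0.0325 and 0.13), and r = 0.792 without the 2 farthest. The libraries that are low in all 3 genes are 1, 6 and 8. They had 175 to 244 CPM of Tgfbr1 against 257 to 458 CPM in the other 6, 50.4 to 56.8 against 58.7 to 73.1 CPM of Smad2, and 254 to 375 against 424 to 728 CPM of Smad3. Their mitochondrial share was 2.19 to 2.48%, against 2.49 to 4.49%. The ranges of Tgfb1, Tgfb3 and Tgfbr2 in these libraries overlapped those of the other 6.

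Within the other 6 libraries alone, Tgfbr1 and Smad2 had r = 0.949 (exact permutation, adjusted p = 0.0333 over 3 pairs), Tgfbr1 and Smad3 r = 0.811 (adjusted p = 0.0646, exact permutation) and Smad2 and Smad3 r = 0.656 (adjusted p = 0.167, exact permutation). These 3 pairs are the ones that had passed in this group, and the 6 libraries are part of the same data. Their p-values, adjusted over 3 pairs only, are therefore no independent support for any of the relations. The relations with Smad3 did not pass without libraries 1, 6 and 8. The share of reads mapped to more than 1 place and the mitochondrial share were also lower in libraries 1, 6 and 8 than in the other 6. Their part was not tested. The plot of Smads against the receptor shows this spread.

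**Figure D4:**
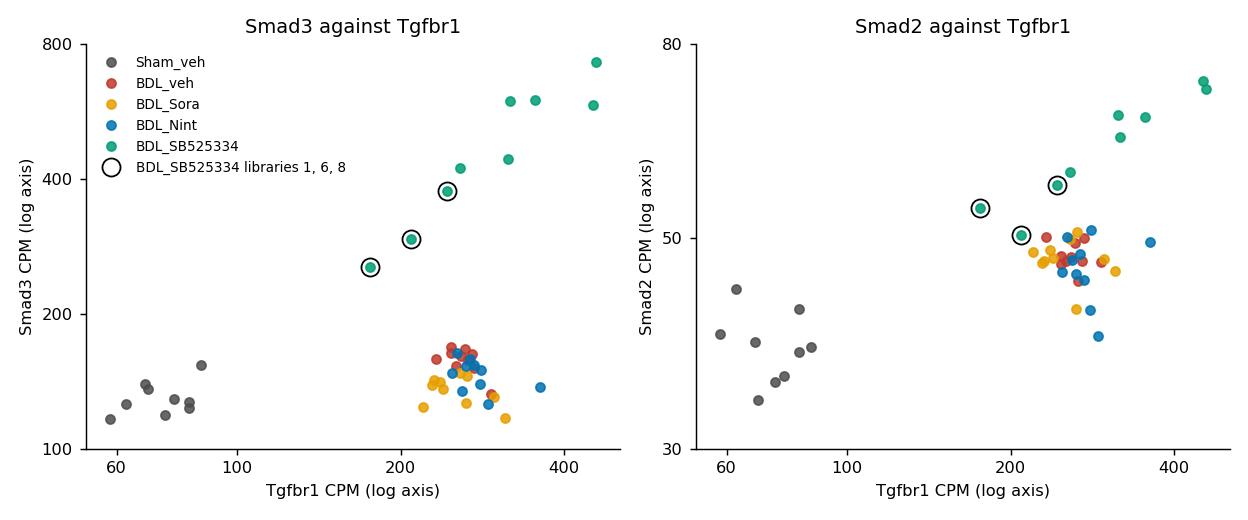
CPM of Smad3 (left) and Smad2 (right) against CPM of Tgfbr1 in each of 48 libraries, both axes log; colours are groups and circles mark SB525334 libraries 1, 6 and 8. SB525334 libraries form a rising band from 175 to 458 CPM of Tgfbr1, while ligated vehicle libraries sit between 233 and 294 CPM.

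In the remaining groups 3 pairs passed for r, and none of them for rho. Tgfbr1 and Tgfbr2 had r = 0.806 and rho = 0.842 in ligated vehicle libraries (n = 10, permutation, adjusted p = 0.0325 and 0.0589), and r = 0.55 without the 2 farthest. Tgfb3 and Tgfbr1 had r = 0.886 and rho = 0.685 with Sora (n = 10, permutation, adjusted p = 0.0325 and 0.197), and r = 0.529 without the 2 farthest, so that this relation rests on the libraries at 34.8 and 36.2 CPM of Tgfb3. Tgfb3 and Tgfbr2 had r = 0.828 and rho = 0.842 with Nint (n = 10, permutation, adjusted p = 0.0435 and 0.0589), and r = 0.763 without the 2 farthest. No pair passed in sham.

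Across all 48 libraries, where group differences set most of the variation, Tgfb1, Tgfb3 and Tgfbr1 moved together (r of 0.886 to 0.907 on log2 CPM) and Smad2 with Smad3 (r = 0.842), while Tgfb1 and Tgfb3 were near 0 against Tgfbr2 (0.05 and 0.09). These are descriptions of 5 groups and carry no p. The tested gene most like a member over the 48 libraries was found for each. The closest was ENSRNOG00000036859 to Tgfbr1 (r = 0.984), which rose with ligation by 3.38 on the log2 scale, from 2.03 ± 0.29 CPM (n = 9) to 21.2 ± 1.92 CPM (n = 10). The next that rose was ENSRNOG00000010584 to Tgfb3 (r = 0.981), at 100.1 ± 13.6 CPM and 565 ± 34.9 CPM in the same groups. None of the 6 closest genes fell with ligation. For Tgfb1 831 genes had r above 0.9, and for Tgfb3 1039, for Tgfbr1 1000, for Smad3 215, for Smad2 51 and for Tgfbr2 6, so the receptor Tgfbr2 had the fewest genes of like pattern.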

How the data were processed

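RNA from 48 slice libraries was sequenced. Per the submitters' processing notes the tools were RSEM and edgeR and the build Rnor_6.0, without versions. The aligner is not given in the sources used here. Expected counts per gene (not normalised) were deposited by the authors and were rounded to whole numbers here, since 8.02% were not whole at a tolerance of 1e-06. The authors' log2 CPM values for 14418 genes were used in 1 alternative, and the quality metrics the authors deposited, other values in mixed units such as percent shares, describe the libraries. Read pairs lay on the antisense strand in 98.7 to 99.2%. Columns of library values not used numbered 0.

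Genes were filtered with filterByExpr by group, scaled with TMM factors and tested with edgeR 4.0.16 (glmQLFit, robust, and glmQLFTest, two-sided; R 4.3.3) in 1 fit of all 48 libraries with 5 group coefficients, with calls at an adjusted p (Benjamini-Hochberg) under 0.05. Log2 CPM used a prior count of 2. The 10 comparisons of groups were made. Ratios and correlations were tested by permutation with SciPy 1.17.1 in Python 3.11.15, by full enumeration (exact) if a group had fewer than 10 libraries, or else 100000 draws. The edgeR test was checked on simulated data. Libraries of a group were compared in 207 pairs; chi-square divided by its degrees of freedom was 3.94 or more (genes of 20 or more counts), so none was a repeat within sampling noise.

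The 6 members were set by pathway role, with no threshold on their values, but they and the lists and left-out library sets were chosen with earlier results of these data known. All 6 members are named whatever their values; for likeness, each member's closest gene by Pearson's r over 48 libraries was taken, with at most 2 that rose printed. Lists of other pathway genes and of cell markers need symbols. The RefSeq table (GRCr8, 47357 genes) holds 0 Ensembl identifiers, so these lists were not used here. The 12 alternatives began with RLE factors, total counts, no filter, and at least 5 CPM in 9 libraries. Replicate number, or the number before the letter P in the library names, was added as a block. Others were the 2 groups alone, DESeq2 1.42.0, limma-voom with sample weights and limma on the authors' log2 CPM (limma 3.58.1). The rest left out SB525334 libraries 1, 6 and 8 or vehicle libraries 3 and 6. Apart from the 12, each library was also left out in turn.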

Additional observations from a re-analysis of the deposited data

Results flagged for a closer look

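In 4 of 30 groups of values, 6 genes in 5 groups, 1 library lay far from the others of its group by Dixon's criterion. Chance alone flags about 1 in 20. The genes were read in the same libraries, so the checks are not independent and these rates cannot be compared directly. Replicate 3 of ligated vehicle was the highest for Tgfb3, at 25.0 CPM with the next at 17.6 CPM, and the highest for Tgfbr2, at 115 CPM with the next at 85.1 CPM. The same library was the lowest for Smad3, at 132 CPM with the next at 151 CPM. Replicate 7 of Nint was the highest for Tgfbr1, at 361 CPM with the next at 289 CPM.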

How the results depend on the processing

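The calls for Tgfb1, Tgfb3 and Tgfbr1 with ligation, for Tgfb1 with each compound and for Tgfb1, Tgfb3, Tgfbr2 and Smad3 with SB525334 against vehicle held in 12 of 12 alternatives and without each library in turn. The number of the 6 genes called for Nint against vehicle was 3, but 1 with RLE factors and 1 with total counts, and 1 to 3 when 1 library was left out (1 without vehicle replicate 1, 4 or 8 or Nint replicate 3 or 7). For Nint against Sora it was 0, and 2 with limma-voom. For SB525334 it was 6 against vehicle and 6 against Sora. In each of these it was 4 to 6 in the alternatives and 5 to 6 when 1 library was left out. The cause was not tested.

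Signs turned with total counts for Tgfbr2 with ligation (0.15), and for Tgfbr1 (-0.18) and Smad2 (-0.038) with SB525334 against vehicle. They also turned for Tgfbr1 with SB525334 against Sora (-0.092) and Nint (-0.25), and for Tgfbr2 with Nint against Sora (0.016). Total counts moved the median of all genes too, and relative to that median each of these differences kept its sign. A change of scaling moves all genes of a comparison by nearly the same amount. Values relative to the median therefore hardly change with it and do not decide which sign holds. With limma-voom they turned for Smad2 with Sora (0.0073) and Tgfbr2 with Nint against Sora (0.039). When 1 library was left out, these ranged from -0.022 to 0.0070 for Smad2 with Sora and from -0.046 to 0.023 for Tgfbr2 with Nint against Sora. The Smad3 over Smad2 ratio with ligation was 0.0038 without vehicle replicates 3 and 6.

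Over all genes, calls for Nint against Sora numbered 343. They numbered 161 with the number before the letter P in the library names as a factor, and 173 with limma on the authors' values. They were 598 with DESeq2, 644 without SB525334 libraries 1, 6 and 8, 1605 in the 2 groups alone and 3729 with limma-voom. Those for Nint against vehicle numbered 3587, and 5674 in the 2 groups alone and 6471 with limma-voom. Those for Sora against vehicle numbered 4323, and 7597 with limma-voom.

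Over 93 pairs of libraries with the same replicate number, residuals correlated at a median of 0.013 (lowest -0.28, 25 pairs over 0.1). The median for other numbers was 0.0049, and pairs over 0.1 were not counted there. The medians gave no sign of pairing by number, which does not exclude it in some of the groups. With the replicate block the counts of called members were 6 for ligation (Tgfbr2 -0.21), 2 for Sora, 2 for Nint and 5 for SB525334 (Tgfbr1 0.23) against vehicle, 0 for Nint against Sora, 6 and 4 for SB525334 against Sora and Nint, and 4, 4 and 6 for Sora, Nint and SB525334 against sham. In sham libraries 8 to 41 reads of Tgfb1 and 9 to 25 of Tgfb3 limit the precision of folds against sham.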
